A study of Homo sapiens with 18 samples.

Results

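The transcript response that A549 cells showed 3 h after exposure to either of 2 colloidal silica nanoparticles (NPs) was measured on 12 of the 18 arrays of the study. A549 is an established human lung adenocarcinoma line with features of alveolar epithelial cells. SM30 NPs have a nominal diameter of 9 nm and AS30 NPs of 18 nm. In the treated groups, cells received 0.02 mg/mL of NPs for 2 h in medium without serum and then recovered for 3 h in medium with serum. The controls went through the same medium changes with no particles, and each particle had its own controls. The 4 groups (SM30, SM30 control, AS30, AS30 control) held 3 arrays each, lettered A to C, so 6 treated arrays were compared with 6 control arrays. The remaining 6 arrays, AS30 and its controls after 22 h of recovery, entered the 3 h estimate only through a normalization and probe filter over all 18 arrays. The letters mark biological replicates by the study's description, with no word on how the cultures were separated, so the p-values measure the spread between these samples.

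Silica particles reach epithelial cells through the airways, and cells that take them up or sense damage at their membrane commonly switch on stress-activated MAP kinases and NF-kB. These pathways end in transcription factors such as AP-1, a dimer of FOS and JUN proteins, and NF-kB, which drive genes of chemokines, proteases and prostaglandin synthesis. The same factors also drive their own inhibitors, among them the dual-specificity phosphatases that switch off MAP kinases and TNFAIP3, which limits NF-kB. YAP is a co-activator of growth genes that responds to cell shape and adhesion.

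All 9 epithelial markers tested, keratins, EPCAM, CDH1 and others, were well above background on all 12 arrays. Of 10 leukocyte markers, 4, among them CD3D, MS4A1 and FCGR3A, were well above background on 0 arrays, while CD3E, CD14 and CD68 were on all 12 and ITGAM on 11. Of 10 endothelial and fibroblast markers, PECAM1, TEK, COL3A1, PDGFRB and DCN were on 0 arrays, COL1A1 on all 12 and VWF on 9. The summed normalized signal of the leukocyte markers was 1356 to 1421 after SM30 against 944.7 to 997.9 in its controls, and 1806 to 1988 after AS30 against 1131 to 1446. CD68, a lysosomal protein that is also a macrophage marker, was the leukocyte marker that rose, by 0.97 log2 units, and COL1A1, a collagen chain, was 0.66 higher (adjusted p 0.0318), a call lost without any of 8 single arrays. In bulk RNA, a change in the number of cells of a type and a change of RNA per cell cannot be told apart. Between 61.7 and 72.4% of spots were well above background on 11 of the 12 arrays, and 52.4% on AS30 control C. The treated arrays lay at 69.0 to 72.4% (SM30) and 62.5 to 67.1% (AS30), and their controls at 65.5 to 69.9% and 52.4 to 61.9%. The part of these values in the results was not tested.

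Each probe was scored by its log2 difference, treated minus control, averaged over both particles with the particle set as a block, and was called where the Benjamini-Hochberg adjusted p from limma was under 0.05. Of 28133 probes tested, 2124 rose (7.55%) and 2131 fell (7.57%), and 8160 had an unadjusted p under 0.05. With 1 probe for each of 14342 genes, 1123 genes rose (7.83%) and 1338 fell (9.33%), and the median difference over all genes was -0.031. The large changes were mostly rises: 451 probes rose and 179 fell by more than 1 log2 unit, and 62 rose and 5 fell by more than 2. The median difference was 0.64 among probes called higher, 0.70 after SM30 and 0.57 after AS30, and -0.51 among those called lower, -0.52 and -0.49. In 1613 probes (5.73%) every treated array lay above every control array of its own particle set, and in 1759 (6.25%) below. Without SM30 control B 1368 probes fell and without SM30 replicate C 1393 did.

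**Figure D1:**
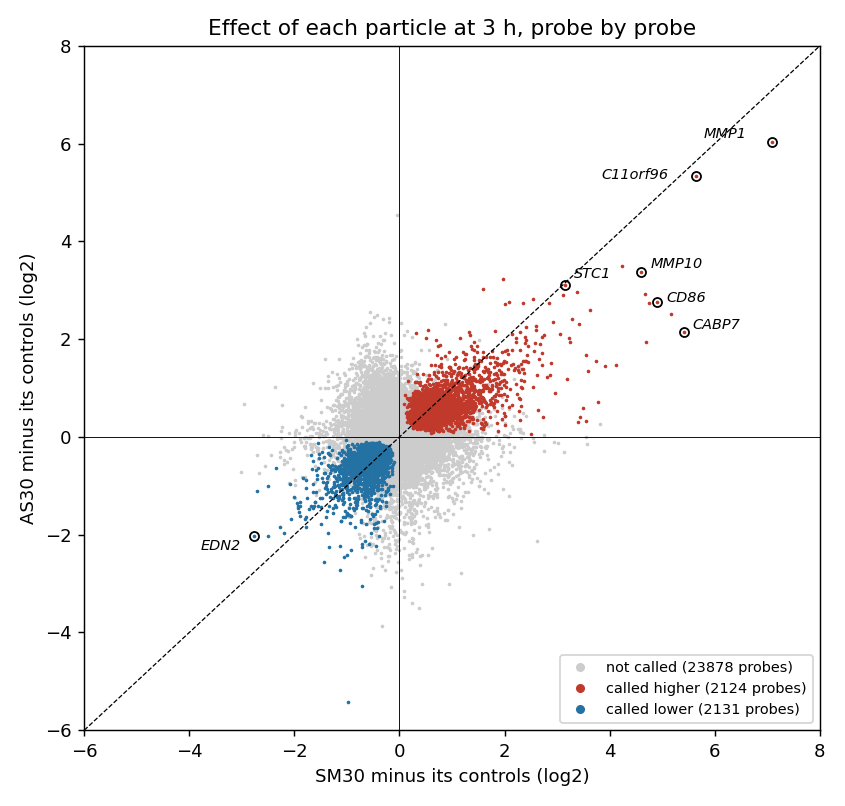
Difference between treated and control arrays for each of 28133 probes, in log2 units, after SM30 on the horizontal axis and after AS30 on the vertical axis, with probes called higher, called lower and not called over both particles in separate colours. The 2124 probes called higher lie in the upper right and the 2131 called lower in the lower left, with most of the 23878 others around the origin.

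MMP1, the interstitial collagenase, rose more than any other gene that was measured above background in all 4 groups. Its log2 normalized signal was 11.76, 11.78 and 11.47 after SM30 against 4.32, 4.75 and 4.66 in the controls (replicates A, B and C), and 11.05, 12.41 and 11.56 after AS30 against 5.99, 6.58 and 4.32. Every treated array lay far above every control array, and the controls of AS30 spread more widely than those of SM30, being well above background on 2 of 3 arrays. MMP1 and the other largest rises and falls were picked among genes without overlap in either set. Their separation is thus a condition of the choice and no further support. The difference was 6.57 ± 0.38 (SE, adjusted p 1.31e-05), or 94.9-fold. The probe lies at chr11:102165907-102165966 of hg18.

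MMP10, a stromelysin whose gene neighbours MMP1, rose with it. The signal was 9.24, 9.74 and 9.09 after SM30 against 5.05, 4.92 and 4.29. After AS30 it was 8.38, 9.40 and 8.67 against 5.12 and 5.75, with no usable spot on control C. The groups did not overlap in either set, and the difference was 4.06 ± 0.29 (adjusted p 3.90e-05), although MMP10 was well above background on only 1 of the 3 AS30 controls. Of 15 matrix metalloproteinase and TIMP genes measured, 3 rose, the last being the gelatinase MMP9 with 0.58, and 0 fell, with a median difference of 0.22.

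Genes of plasminogen activation, which also act on the matrix, rose in part. Among 16 plasminogen and coagulation genes 5 rose and 0 fell, with a median of 0.05, close to that of all genes. PLAUR, the receptor that holds urokinase at the cell surface, read 12.94, 13.12 and 12.92 after SM30 against 11.11, 11.29 and 11.50, and 12.66, 13.19 and 12.65 after AS30 against 11.46, 11.44 and 11.59. Its difference was 1.52 ± 0.12, and that of urokinase itself, PLAU, was 1.13 ± 0.11. Neither gene overlapped between groups. TFPI, an inhibitor of the tissue factor pathway, rose by 1.48, the protease receptor F2RL1 by 0.82 and the protease inhibitor SERPINE2 by 0.66.

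C11orf96, an uncharacterised gene, had the next largest rise, 5.49 ± 0.34. Its signal was 12.51, 12.40 and 12.26 after SM30 against 6.60, 6.64 and 7.02, and 10.65, 13.12 and 11.88 after AS30 against 6.10, 7.13 and 6.37. The treated groups again lay apart from the controls, as the choice required, with AS30 replicate A the lowest of the treated arrays. CD86, known as a co-stimulatory ligand of antigen-presenting cells, rose by 3.84 ± 0.55, with 13.19, 14.22 and 14.11 after SM30 against 9.10, 8.89 and 8.80, and 10.44, 12.49 and 10.37 after AS30 against 8.81, 6.87 and 9.31. Its AS30 groups were separated by a narrower gap than its SM30 groups.

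The other largest rises were of mixed kinds. CCNG2, an unconventional cyclin of quiescent cells, read 10.31, 10.21 and 10.20 after SM30 against 7.37, 7.19 and 7.39, and 9.37, 9.86 and 9.19 after AS30 against 7.21, 7.57 and 6.60. Its difference was 2.63 ± 0.18 (adjusted p 1.87e-05), and lack of overlap was a condition of its choice. CREBRF, a regulator of CREB3, rose by 2.84 ± 0.25, DEPP1, a FOXO target, by 2.68 ± 0.21, and the pro-apoptotic BH3-only gene BMF by 2.55 ± 0.20. YPEL2 (2.22), AMPD3, an AMP deaminase (2.20), TAMALIN (2.15), the histone demethylase KDM7A (2.15) and KLHL24 (2.07) followed, as did VPS18, a subunit of endosomal tethering complexes (2.19). VPS18 was 3.19 higher after SM30 and 1.18 after AS30, where it was not called alone. The rise of IRX5, 2.25, had an adjusted p of 0.041, and the other probe for that gene differed by -0.22 and was not called. IRX5 was 3.78 higher after SM30 but 0.71 after AS30, where it was not called alone. Leaving out 1 array at a time, the IRX5 rise lost its call in 6 of 12 cases.

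**Figure D2:**
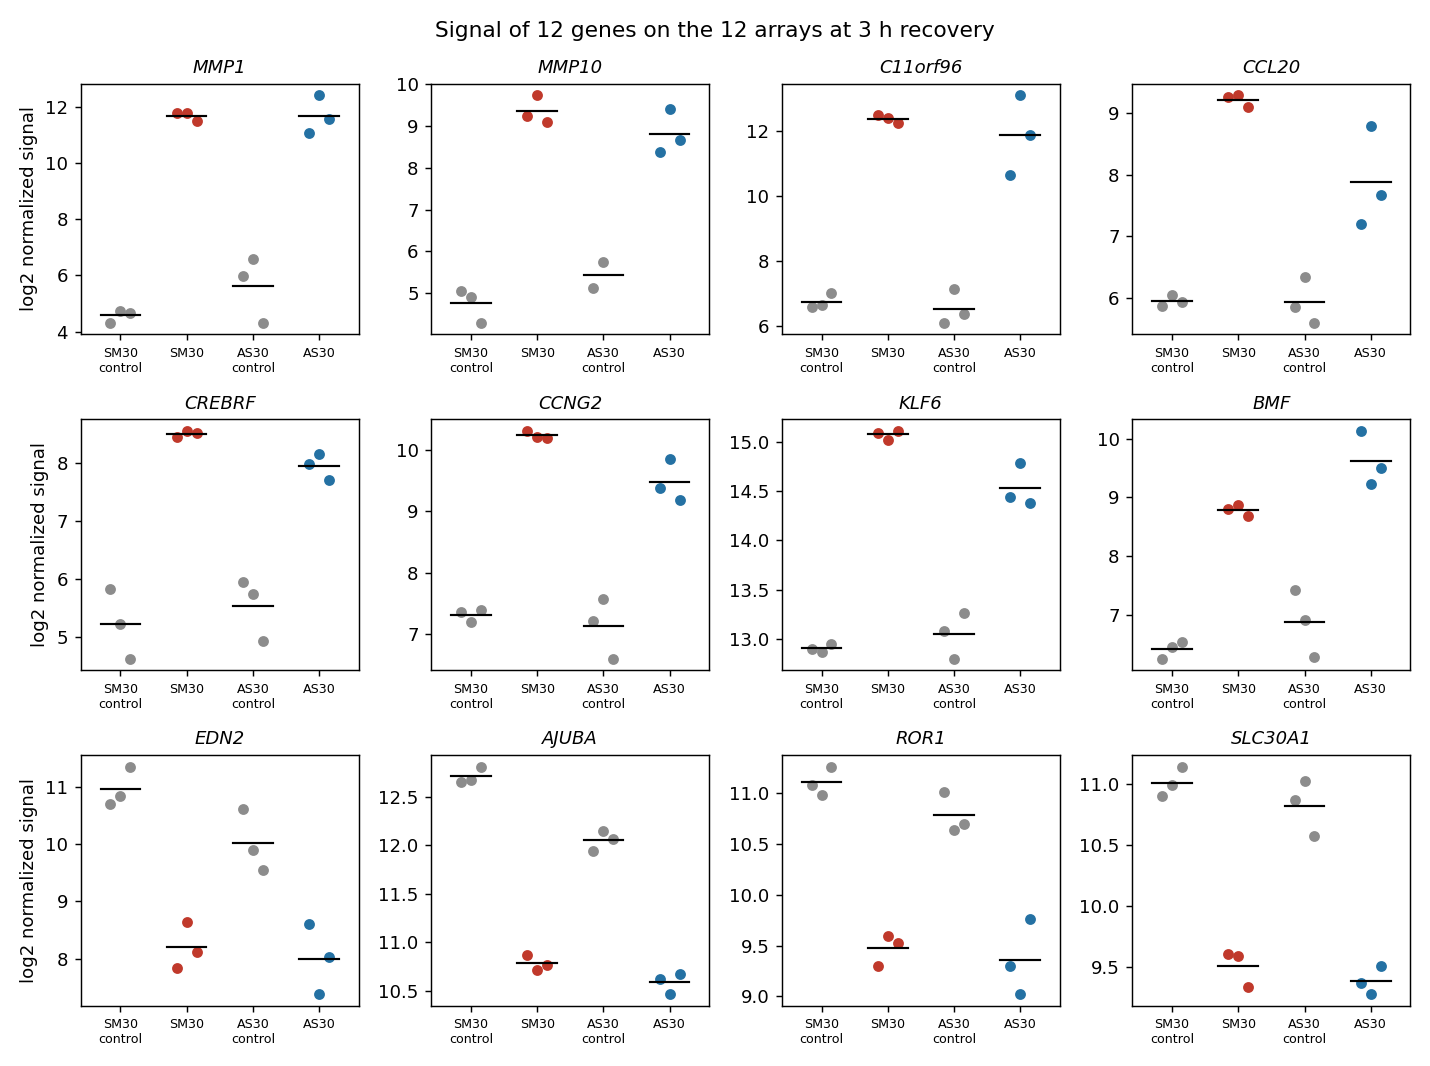
Log2 normalized signal of 12 genes on each of the 12 arrays at 3 h, in 4 columns of points for SM30, its controls, AS30 and its controls, with a line at each group's mean. The treated points lie above their own controls in MMP1, MMP10, C11orf96, CCL20, CREBRF, CCNG2, KLF6 and BMF, and below them in EDN2, AJUBA, ROR1 and SLC30A1.

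A further 64 genes rose from a control group in which no array read them well above background, so their folds are bounds there. CABP7, a calcium-binding protein, was 42.6-fold higher after SM30 and at least 4.41-fold higher after AS30. STMN4, a stathmin, was at least 10.7-fold and at least 4.98-fold higher. The C-type lectin receptor CLEC4E was at least 12.1-fold and at least 2.56-fold higher, and the ligand BMP2 at least 6.97-fold and at least 2.35-fold. ITGAX, an integrin alpha chain, was 6.53-fold higher after SM30 and at least 4.15-fold after AS30, CAMTA1 4.82-fold and at least 2.51-fold, and SHC4, an adaptor of receptor kinases, at least 5.84-fold and at least 2.02-fold. The other CAMTA1 probe differed by 0.08 log2 units over both particles and was not called. These bounds set a minimum only and give no order among the genes.

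Among secreted inflammatory mediators 11 of 17 measured rose and 0 fell, against 7.83% of all genes that rose. The list's median was 0.73, with 1.07 after SM30 and 0.39 after AS30. CCL20, a chemokine for CCR6-bearing cells, led the group. It read 9.26, 9.29 and 9.09 after SM30 against 5.88, 6.06 and 5.95, and 7.20, 8.79 and 7.67 after AS30 against 5.85, 6.35 and 5.61. The groups did not overlap, as required of the largest rises, and the rise was 2.60 ± 0.30 (adjusted p 0.000310).

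The neutrophil chemoattractant CXCL8 rose by 1.10 ± 0.26 (adjusted p 0.0165). Its signal was 11.89, 11.69 and 11.65 after SM30 against 10.16, 10.28 and 10.10, but 10.40, 10.95 and 10.30 after AS30 against 10.42, 10.34 and 9.00. The SM30 groups were well apart, while the AS30 groups overlapped. CXCL3 (0.97) and CXCL2 (0.92) also rose, as did CSF2, the growth factor GM-CSF (1.52), IL32 (0.73), IL11 (0.69), TNFSF9 (0.46) and LIF (0.39). IL1B rose by 1.63 ± 0.43 (adjusted p 0.0272), overlapped between the AS30 groups, and lost its call without any of 7 single arrays. TNF was 3.50-fold higher after SM30 and at least 1.53-fold after AS30 (adjusted p 0.00841), and its other probe, with a difference of 0.005, was not called. PTGS2, the inducible cyclooxygenase that starts prostaglandin synthesis, rose by 1.52 ± 0.36, with 2.02 after SM30 and 1.01 after AS30. The prostaglandin receptor PTGER4 fell by 1.07, in a list where 2 of 10 rose and 1 fell. Both PTGS2 and PTGER4 overlapped between the AS30 groups. The PTGER4 call was also lost without any of 7 single arrays. After AS30 alone CXCL8, CSF2, IL1B, TNF, PTGS2 and PTGER4 were not called, while CCL20 was. IL1B and PTGER4 were not called after SM30 alone either.

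Genes that restrain the signalling rose as well. Of 15 NF-kB subunits and inhibitors 8 rose and 0 fell, with a median of 0.45. The ubiquitin-editing enzyme TNFAIP3 read 8.91, 8.83 and 8.83 after SM30 against 7.17, 6.98 and 7.29, and 7.58, 7.45 and 7.41 after AS30 against 7.32, 7.26 and 5.85. It was higher on all treated arrays, with a narrow gap in the AS30 set, and the rise was 1.19 ± 0.26 (adjusted p 0.0113). TNFAIP3 was not called after AS30 alone. NFKBIZ, a nuclear IkB protein, rose by 1.01, the TNFAIP3 partners TNIP1 and TNIP2 by 0.67 and 0.54, and the subunits NFKB2 and RELA by 0.50 and 0.46. Upstream, 4 of 21 Toll-like receptor pathway genes rose and 0 fell, with the kinase IRAK2 at 1.63 ± 0.14. That count was 1 without SM30 replicate C and 2 without SM30 replicate A or B, SM30 control A or B, or AS30 replicate B.

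MAP kinase inhibitors rose in 11 of 16 genes, with 0 falls and a median of 0.46. The phosphatase DUSP8 read 9.78, 10.05 and 9.92 after SM30 against 8.51, 8.45 and 8.19, and 9.50, 9.23 and 9.20 after AS30 against 8.42, 7.99 and 7.95. Its groups lay apart by similar distances in both sets, and the difference was 1.36 ± 0.12. The other DUSP8 probes differed by 1.39 and, not called, by 0.13. DUSP10, which acts on JNK and p38, was 8.35-fold higher after SM30 and at least 4.32-fold after AS30. DUSP16 rose by 1.51, DUSP5 by 1.12 and DUSP6 by 0.71, and the receptor kinase inhibitors SPRY2 and SPRY4 by 0.65 and 0.44. Without SM30 control A, or without SM30 control B, 7 of the list were called.

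Transcription factors showed rises and falls. All 12 Kruppel-like genes were measured, of which 8 rose and 0 fell, with a median of 0.76. KLF6 read 15.09, 15.02 and 15.11 after SM30 against 12.90, 12.87 and 12.95, and 14.44, 14.78 and 14.38 after AS30 against 13.08, 12.80 and 13.26. Treated and control arrays lay apart in both sets, and the rise was 1.83 ± 0.14 (adjusted p 3.28e-05), with 3 other probes between 1.59 and 2.37. KLF9 rose by 1.42, KLF2 by 0.94, KLF7 by 0.88 and KLF4 by 0.67, and KLF3 was 2.15-fold higher after SM30 and at least 2.46-fold after AS30. The other KLF2 probe, at 0.46, was not called.

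Of 20 immediate-early genes 8 rose and 2 fell, with a median of 0.33. The AP-1 members FOSL2 (1.06), JUN (0.87), JUND (0.55) and FOSL1 (0.46) rose, with the orphan receptor NR4A2 (1.43), the survival gene IER3 (0.76) and the small MAF proteins MAFF and MAFK (0.79 and 0.67). FOSL2 and JUN were 1.44 and 1.35 higher after SM30, but 0.69 and 0.38 after AS30. Neither was called after AS30 alone, and FOSL2 overlapped between the AS30 groups. The difference between particles was not called for FOSL2 or JUN. FOS itself differed by -0.09 ± 0.37 (adjusted p 0.89). EGR1, a zinc-finger factor induced by growth factors, moved the other way: its signal was 11.28, 10.81 and 10.91 after SM30 against 12.51, 12.49 and 12.73, and 9.55 and 9.56 after AS30 against 10.61, 10.21 and 10.45, with no usable spot on AS30 replicate C. It lay below its controls on every measured array, by 1.26 ± 0.16 log2 units (adjusted p 0.000671). SRF, which acts through CArG boxes at EGR1 and similar genes, fell by 0.53.

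The promoters of 4 of these genes are shown to place binding motifs beside the measurements: MMP10 for AP-1, CCL20 and TNFAIP3 for NF-kB, and EGR1, which fell, for the CArG box. They were picked after the values were seen, and MMP1 has no entry in the table used. Each run is the RefSeq window from 250 bases before to 50 after the gene start, on the strand of the gene in GRCh38.p14, with the motif in capitals.

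MMP10, chr11:102780579-102780878, minus strand: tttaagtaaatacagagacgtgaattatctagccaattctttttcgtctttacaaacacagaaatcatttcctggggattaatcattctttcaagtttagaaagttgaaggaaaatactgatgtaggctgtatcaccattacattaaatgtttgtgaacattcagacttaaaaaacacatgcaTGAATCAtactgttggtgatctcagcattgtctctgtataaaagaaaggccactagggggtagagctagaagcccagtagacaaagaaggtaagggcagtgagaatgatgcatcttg
CCL20, chr2:227813592-227813891, plus strand: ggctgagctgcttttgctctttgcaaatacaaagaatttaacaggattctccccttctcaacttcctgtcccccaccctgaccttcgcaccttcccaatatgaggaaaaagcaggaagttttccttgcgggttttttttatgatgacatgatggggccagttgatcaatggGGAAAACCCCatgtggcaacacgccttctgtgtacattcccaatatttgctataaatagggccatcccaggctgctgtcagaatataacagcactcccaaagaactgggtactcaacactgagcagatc
TNFAIP3, chr6:137867009-137867308, plus strand: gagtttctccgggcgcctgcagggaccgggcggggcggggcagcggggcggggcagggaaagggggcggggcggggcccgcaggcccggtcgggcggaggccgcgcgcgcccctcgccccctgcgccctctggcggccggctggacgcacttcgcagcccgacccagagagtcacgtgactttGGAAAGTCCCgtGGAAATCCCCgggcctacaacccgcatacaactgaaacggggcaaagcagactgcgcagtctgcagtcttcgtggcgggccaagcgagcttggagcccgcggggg
EGR1, chr5:138465229-138465528, plus strand: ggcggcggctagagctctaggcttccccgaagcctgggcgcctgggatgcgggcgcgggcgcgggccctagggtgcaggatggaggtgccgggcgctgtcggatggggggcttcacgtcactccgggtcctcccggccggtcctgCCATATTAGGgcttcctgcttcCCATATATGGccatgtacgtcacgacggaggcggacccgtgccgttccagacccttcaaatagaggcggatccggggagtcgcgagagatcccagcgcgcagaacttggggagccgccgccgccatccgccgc

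The AP-1 match of MMP10 (TGANTCA, searched on both strands) spans positions -67 to -61 from the start. The NF-kB match of CCL20 spans -79 to -70. TNFAIP3 holds 2 NF-kB matches in close succession, at -67 to -58 and at -55 to -46, and EGR1 2 CArG boxes at -105 to -96 and -83 to -74. Over all 35116 windows in the table, 7.71% held the AP-1 motif, and among genes tested it was 7.02% of 897 called higher, 3.81% of 1076 called lower and 4.71% of 9175 called neither way. For NF-kB the shares were 7.47, 5.86 and 6.60%, beside 5.91% of all windows, and for the CArG box 0.67, 1.49 and 1.10%, beside 1.29%. The CRE motif (TGACGTCA) was in 4.24, 2.79 and 2.98%, beside 1.85%, and the sterol element (TCACNCCAC) in 0.89, 0.93 and 1.05%, beside 1.13%. A match is a run of letters and no measurement of binding.

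Among genes that fell, EDN2, the vasoactive peptide endothelin 2, had the largest fall of those measured above background in all groups. It read 7.84, 8.63 and 8.11 after SM30 against 10.69, 10.83 and 11.35, and 8.60, 7.38 and 8.03 after AS30 against 10.62, 9.90 and 9.55. The groups lay apart in both sets, as required of the largest falls, and the signal fell by 2.39 ± 0.27 (adjusted p 0.000272). SLC30A1, a zinc exporter of the plasma membrane, was 9.61, 9.59 and 9.34 after SM30 against 10.90, 10.99 and 11.14, and 9.37, 9.28 and 9.51 after AS30 against 10.87, 11.02 and 10.57. The difference was -1.47 ± 0.10, nearly the same after SM30 (-1.50) and AS30 (-1.44). The metal-binding metallothioneins, of which 9 were measured, had 1 fall, MT1F by 0.99. That share, 11.1%, was near the 9.33% of all genes that fell.

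The remaining large falls were also of mixed kinds. ROR1, a receptor of WNT5A, fell by 1.53 ± 0.13 by its brightest probe, and its other probes differed by -1.47 and, not called, by -0.42. PRICKLE2, a planar polarity gene, fell by 1.74, AMER1, a WNT pathway inhibitor, by 1.55, CYP26A1, which degrades retinoic acid, by 1.67, and INHBB, an activin subunit, by 1.55. SKIDA1 (-1.91), DCDC2 (-1.65), ZBED2 (-1.47), SLITRK6 (-1.41), CAVIN2 (-1.40), PLEKHH2 (-1.39) and SYT6 (-1.93) also fell, and the other SYT6 probe, at -0.66, was not called. The calls of SYT6 and PLEKHH2 were lost without any of 9 and 10 single arrays. In 17 genes no array of a treated group was well above background: the small GTPase RAB7B was 4.83-fold lower after SM30 and at least 3.59-fold lower after AS30, the cadherin FAT4 3.44-fold and at least 2.11-fold, and the transcription factor ATOH8 at least 5.11-fold and 1.55-fold. The other RAB7B probe, at -0.54 log2 units, was not called.

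Of 15 genes known as YAP targets 7 fell and 0 rose, beside 9.33% of all genes that fell, with a median of -0.69. AJUBA, a LIM protein of cell junctions, read 10.87, 10.71 and 10.76 after SM30 against 12.65, 12.67 and 12.81, and 10.62, 10.46 and 10.67 after AS30 against 11.94, 12.15 and 12.06. Within-group spread was small and the fall was 1.70 ± 0.10 (adjusted p 1.34e-05). The matricellular genes CCN1 and CCN2 fell by 1.05 ± 0.10 and 1.19 ± 0.12. For CCN1 the signal was 13.79, 13.70 and 13.70 after SM30 against 14.50, 14.58 and 14.56, and 13.14, 13.14 and 13.31 after AS30 against 14.54, 14.49 and 14.43, with no overlap. ARHGEF17 (-1.08), AMOTL2 (-0.86), NUAK2 (-0.85) and WWC1 (-0.69) completed the group. In the list of ID and TGF-beta feedback genes 3 of 15 fell, among them ID2, an inhibitor of differentiation factors (-1.16), and the BMP inhibitor SMAD6 (-1.07), and 3 rose, among them the ubiquitin ligase SMURF1 (0.73).

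Cell cycle genes were lower. Of 34 mitosis and G2/M genes 18 fell and 1 rose, with a median of -0.45, and of 42 G1/S and replication genes 18 fell and 0 rose, with a median of -0.37. The polo-like kinase PLK1 read 13.64, 13.79 and 13.89 after SM30 against 14.21, 14.24 and 14.37, and 13.38, 13.18 and 13.36 after AS30 against 14.08, 14.25 and 13.83. Treated and control arrays did not overlap, and the fall was 0.62 ± 0.10 (adjusted p 0.00171). CDC20, HMMR, AURKA and cyclin B1 (CCNB1) fell by 0.68, 0.75, 0.63 and 0.51, and WEE1, a kinase that holds CDK1 inactive, was the gene that rose (0.58). The replication licensing factors CDC6 and ORC1 fell by 0.71 and 0.60, cyclin D3 (CCND3) by 0.82 and E2F2 by 0.92, the last not called without SM30 control B. The other probes of CCND3 (-0.51) and E2F2 (-0.17) were not called. DNA damage sensing and repair genes had 9 falls and 0 rises of 28 (median -0.17), with BRCA2 at -0.85 and BRCA1 at -0.55. ATM, a kinase of that list, differed by 0.20 ± 0.19 and was not called.

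Stress pathways split by gene rather than by list. Of 25 p53 targets 6 rose and 4 fell, with a median of -0.05. TP53INP1, an autophagy and apoptosis gene, rose by 1.99 ± 0.13, and CDKN1A, the inhibitor p21, by 1.05 ± 0.12, and both had no overlap between groups. The kinase PLK2 fell by 0.73 and GADD45A by 0.51, and 2 of the list fell without any 1 SM30 replicate, SM30 control A or B, or AS30 replicate A or B. In the BCL2 family 4 of 16 rose and 1 fell: beside BMF, the pro-apoptotic BIK (0.97) and PMAIP1 (0.76) and the anti-apoptotic MCL1 (0.69) rose, and the anti-apoptotic BCL2L1 fell by 0.70. The ATF4 and unfolded protein list had 6 rises of 23 and 1 fall (median 0.05), led by DDIT3, which encodes CHOP (1.34), TRIB3 (1.22), SESN2 (1.18) and PPP1R15A (1.08), while the ER chaperones HSPA5, HSP90B1, PDIA4 and CALR were not called.

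The oxidative stress list had few calls. Of 23 NRF2 targets 0 rose and 3 fell (13.0%), beside 7.83% and 9.33% of all genes. The largest fall was 0.38, and the sign of the list's median depended on the scaling. Among 21 heat shock genes 2 rose, the small heat shock proteins CRYAB (1.36) and HSPB8 (1.12), and 6 fell, led by HSPA2 (-0.93), of which 3 were called without any 1 SM30 replicate or SM30 control B. The list of 22 interferon-stimulated genes had 5 rises, led by ISG20 (1.53), and 2 falls, among them IFIT1 (-0.86). In the hypoxia list, whose median also changed sign with the scaling, STC1, a secreted glycoprotein, rose by 3.12 ± 0.22, and EGLN3 and the glucose transporter SLC2A3 fell by 1.38 and 1.31. STC1 was well above background on 1 of 3 AS30 controls. Of 12 clock genes 2 rose (16.7%, beside 7.83% of all genes), NFIL3 (1.10) and BHLHE40 (0.54), and 4 did without AS30 replicate C.

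Junction genes moved in both directions. CLDN4, a tight junction claudin, read 8.11, 8.28 and 8.19 after SM30 against 4.34, 4.63 and 4.73, and 8.37, 7.45 and 7.46 after AS30 against 5.86, 4.61 and 4.99. It rose by 3.12 ± 0.26 with no overlap, although well above background on only 1 of 3 AS30 controls. F11R rose by 1.00 and CLDN12 by 0.96, the scaffold TJP3 fell by 1.01 and the plakophilin PKP2 by 0.91, and in all 4 of 22 genes rose and 3 fell. The falls numbered 0 without SM30 replicate A or C, SM30 control A or B, AS30 replicate C or AS30 control A, and 1 without SM30 replicate B or AS30 control B. Of 24 uptake genes 2 rose, RAB7A (0.72) and PAK1 (0.45), and 3 fell, among them caveolin 1, CAV1 (-0.37), with 1 rise without SM30 replicate B, SM30 control A or B, or AS30 replicate B. Of 10 EGF family genes 1 rose and 1 fell. Shares called higher and lower were 18.2 and 13.6% (junction), 8.33 and 12.5% (uptake) and 10 and 10% (EGF). Of all genes 7.83% rose and 9.33% fell, so the uptake and EGF shares lay near those of all genes.

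Some sterol and lysosome genes rose. Of 25 cholesterol synthesis and SREBP2 target genes 7 rose and 0 fell, with a median of 0.16. INSIG1, a sterol-regulated protein of the ER, read 10.92, 10.88 and 10.84 after SM30 against 9.43, 9.42 and 9.50, and 10.39, 10.29 and 9.89 after AS30 against 9.43, 9.57 and 9.68. No arrays overlapped within either set, and the rise was 1.03 ± 0.15 (adjusted p 0.00120). The synthesis enzymes MSMO1 and MVD rose by 0.52 and 0.45. Of 23 lysosome genes 5 rose and 1 fell (median 0.14), with the protease CTSL at 0.90 and the cholesterol exporter NPC1 at 0.83. The fatty acid list had 1 rise and 1 fall of 15, or 6.67% each, near the 7.83% and 9.33% of all genes.

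GAPDH, a common reference transcript, differed by 0.01 ± 0.07 (adjusted p 0.94), and of 10 reference genes 0 rose and 1, TBP, fell, by 0.28, a call lost without any of 11 single arrays. None of the 9 epithelial markers was called, and their median was -0.13.

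**Figure D3:**
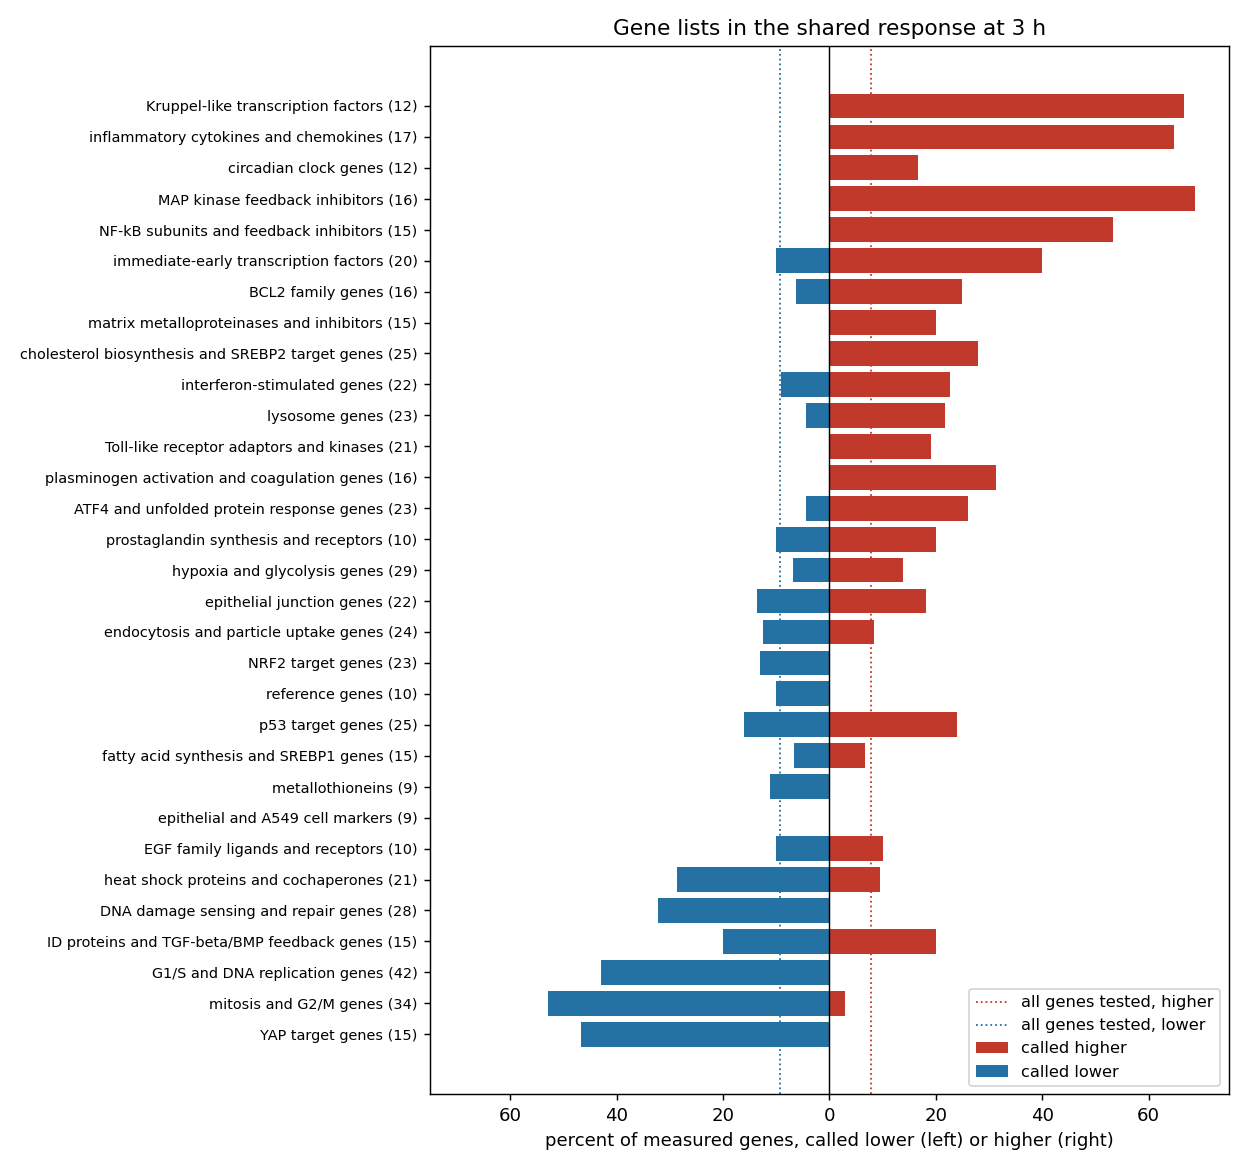
Percent of the measured genes of each list that were called higher (right) and lower (left) over both particles at 3 h, with dotted lines at the share of all genes, 7.83% higher and 9.33% lower. Kruppel-like factors, MAP kinase inhibitors, cytokines and NF-kB genes reach furthest to the right, and mitosis, YAP target and G1/S genes furthest to the left.

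Probes were called on the mean of both particles, which favours values of one sign, and all those called had the same sign after SM30 as after AS30. The effect of each particle alone came from a fit of the 4 groups with one spread. In it 2625 probes (9.33%) were called after SM30 and 1522 (5.41%) after AS30. Over all probes tested, 509 were called higher after both particles and 271 lower after both. The estimate was larger after SM30 for 1353 of 2124 rises and 1217 of 2131 falls. A test of the SM30 difference against the AS30 difference called 29 probes (0.103%), 25 of them with the higher value in the SM30 set, beside 4084 probes at an unadjusted p under 0.05. Among probes of the shared response 5 were called different. Without AS30 control C, the array with the lowest share of spots above background, 3027 probes were called different, and without any other single array 1 (SM30 replicate B or SM30 control B) to 117 (AS30 replicate A) were, so the number of probes on which the particles differ rested on single arrays. A p above the threshold does not show that both particles gave the same value: for MMP1, SM30 minus AS30 was 1.05 ± 0.71, for CCL20 the differences were 3.25 and 1.95, and for DEPP1 2.55 and 2.82.

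Slides held arrays of few groups, which limits what the 12 arrays can separate. The AS30 treated arrays lay on 1 slide and their controls on another, so at 3 h AS30 treatment and slide cannot be told apart. In the SM30 set replicate A shared a slide with all 3 controls, but replicates B and C lay on another slide that held no control. For replicates B and C, too, treatment and slide cannot be told apart. With slide as a fixed block, the estimate therefore came from SM30 replicate A against its controls, and far fewer probes were called. In it 4239 of 4247 called probes kept their sign. The same arrays had also entered the calls, so the kept signs are no separate check. By list, 3 cytokine, 3 MAP kinase inhibitor, 2 Kruppel-like and 1 NF-kB gene rose and 3 YAP target, 2 mitosis and 1 G1/S gene fell in that fit, with medians of 1.05, 0.38, 0.86, 0.54, -0.53, -0.54 and -0.39.

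The response could be followed to 22 h for AS30 in arrays that entered the 3 h estimate only through the shared normalization and probe filter. The treated arrays at 22 h all lay on slide 3, and their controls A, B and C on slides 1, 2 and 3. Between 56.85 and 67.02% of spots were well above background on the treated arrays, and between 51.86 and 58.4% on the controls. The part of slide and of these shares in the 22 h values was not tested. At 22 h, 939 of 26528 probes rose (3.54%) and 416 fell (1.57%). Of the shared rises 1995 had a 22 h value, of which 1671 were positive, 329 were called higher and 2 lower, and of the shared falls 2065 had one, of which 1527 were negative, 132 were called lower and 12 higher. The median 22 h difference was 0.34 for the rises and -0.18 for the falls, beside -0.005 over all probes.

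Single genes ranged widely at the later time. Several early rises remained past the threshold: C11orf96 was 3.25 higher, DEPP1 and BMF 2.50, TFPI 2.10, CCNG2 1.54, TP53INP1 1.44 and PLAUR 1.02. Others were near control level, with 22 h differences of 0.25 for KLF6, -0.06 for DUSP8, -0.26 for CXCL8 and -0.08 for FOSL2, none of them called. EGR1 was lower at both times, by 1.66 at 22 h (adjusted p 0.0318), and AJUBA by 0.69. IFIT1 changed sign, from a fall of 0.86 at 3 h to a rise of 1.56 at 22 h (adjusted p 0.00684). Whether these later values differed from the 3 h ones was not tested.

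The lists also ranged widely. At 22 h 0 of 14 cytokine genes with a value were called, with a median of 0.11, beside 0.39 over 17 genes after AS30 at 3 h. CCL20, CSF2 and TNF, which were called higher at 3 h, had no 22 h value, so these medians cover unlike genes. The Kruppel-like, MAP kinase and immediate-early medians were 0.04, 0.13 and -0.08, over 11, 15 and 20 genes. After AS30 at 3 h they were 0.61, 0.55 and 0.31, over 12, 16 and 20 genes. The NF-kB median was 0.24, with 2 of 14 called higher, beside 0.33 over 15 genes. Of 34 mitosis genes 9 were lower, with a median of -0.68, and of 42 G1/S genes 2 were. Sterol genes had a median of 1.45, beside 0.12, with 21 of 25 called higher, INSIG1 rising by 2.13, and the lysosome, fatty acid and interferon lists had medians of 0.66, 0.70 and 0.52 with 6 of 23, 6 of 15 and 7 of 21 genes higher.

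**Figure D4:**
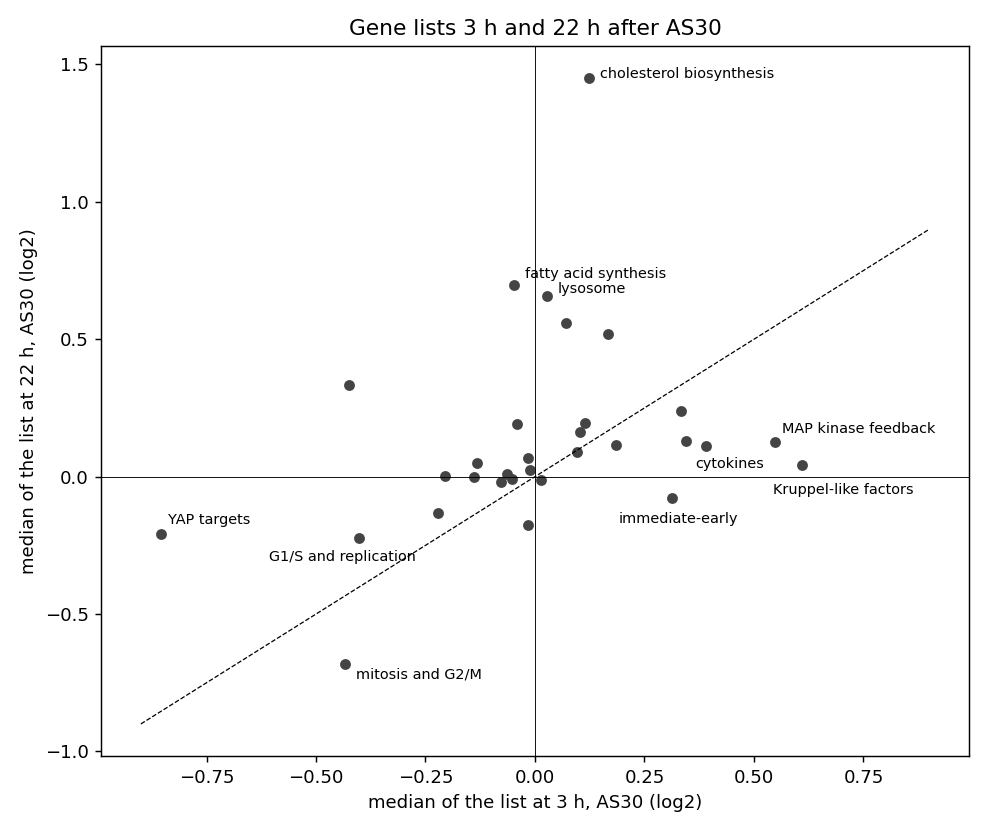
Median log2 difference of each gene list after AS30 at 3 h (horizontal axis) and at 22 h (vertical axis), with a dashed line where both are equal. Medians at 3 h cover all measured genes of a list, and those at 22 h only the genes with a 22 h value. Cytokine and Kruppel-like genes lie at 0.39 and 0.61 at 3 h and at 0.11 and 0.04 at 22 h, and the sterol list at 0.12 and 1.45.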

How the data were processed

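Total RNA was hybridised in one colour (Cy3) to Agilent human 44K arrays, and the deposited scanner files give Agilent's processed signal intensity per spot, produced by the authors with Agilent Feature Extraction 10.5.1.1 per the file headers. The deposited series table holds the authors' normalized intensities, which were taken to log2 and served as an alternative. Processed signals of the 43376 spots that are not controls were taken to log2 and quantile-normalized over all 18 arrays. Spots marked as outliers or not positive and significant were set missing, replicate spots averaged, and probes with more than 33% missing values removed, which left 28665 of 41000 probes. A further requirement of 2 measured arrays in each group left 28133. Differences were tested with limma 3.58.1 in R 4.3.3, with the particle set as a block, and adjusted over all probes. Single-particle effects came from a fit of the 4 groups and 22 h effects from one of all 18 arrays. No spot was saturated, and the number of arrays limits the precision.

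A gene took its symbol from the RefSeq table through its accession, or by name where the chromosome fitted. It was represented by the accession-matched probe of highest mean signal, so other probes can differ. Not every other probe is given: those of BCL2L1 (-0.42) and SMURF1 (0.27), for example, were not called. A group not well above background on any array has only a bound, set against the lowest signal well above background, with outlier spots left out and never past the fitted difference. Promoter windows matched 11148 of 14342 genes.

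Named genes were the 15 largest rises and falls that were well above background on at least 2 arrays in every group with no overlap, the 8 largest bounds in each direction, up to 4 called genes of each list with the largest differences, the 5 largest differences between particles in each direction, and 6 genes of the study's qRT-PCR. Further called members of the lists are given as examples. The members and lists were chosen with earlier results of these data known. Alternatives covered scaling, background correction, spot filters, array weights, slide, scan, replicate letters and leaving out each array. The scan block was added after the data had been seen. Methods were tested on simulated data. Some single genes of the lists are not reported here.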

Additional observations from a re-analysis of the deposited data

Results flagged for a closer look

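For 5 probes called in the shared response the SM30 and AS30 differences were themselves called different (limma, adjusted over all probes). Probe A_24_P823381 had a fitted difference of 4.44 ± 0.23 between particles (adjusted p 0.000738), from -0.99 after SM30 and -5.43 after AS30. It was well above background on 1 of 3 SM30 and 0 of 3 AS30 treated arrays, so these sizes rest on signals near background and are not measured folds. The array design pairs it with a gene on a chromosome other than the one the probe lies on, so it is given by its identifier. Probe A_24_P392414, which has no gene symbol, differed by 3.23 ± 0.28 (adjusted p 0.0113), with 3.56 after SM30 and 0.33 after AS30, and was well above background on 0 of 6 AS30 set arrays, so its AS30 value and the difference are not measured sizes. RBM22, a splicing factor, differed by 3.03 ± 0.41 (adjusted p 0.0346), with 3.44 and 0.41, and its other probe, at -0.37 over both particles, was not called. BCR, a GTPase-activating protein, differed by 2.44 ± 0.27 (adjusted p 0.0135), with 2.51 and 0.06, and 6 other probes for it were not called in the shared response. EFL1, a ribosome maturation factor, differed by 1.96 ± 0.26 (adjusted p 0.0386), with 2.30 and 0.34, and was well above background on 0 of 3 AS30 controls, while its other probe rose by 0.37 after SM30 and 0.38 after AS30.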

How the results depend on the processing

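The counts of shared rises (2124) and falls (2131) stayed within 1.5 times of these values under each scaling and background correction tried, the authors' table, the spot filters, the 4 group means and slide as a random block, from 1894 to 2283 rises and 1575 to 2299 falls. Leaving out each array gave 1559 to 2402 rises and 1368 to 3000 falls. Fits with slide as a fixed block had fewer: 301 and 165 over 12 arrays, by construction an estimate from SM30 replicate A against its controls, and 207 and 169 over 18 arrays. With scan as a fixed block there were 151 and 57. The share of rises among called probes was 64.6% and 72.6% with slide and scan as a fixed block over 12 arrays, against 49.9%. Array weights gave 3855 rises and 3915 falls. The cause of the differences not named here was not tested.

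Probes called different between particles (29) numbered 13 after normexp background correction, 71 with all spots and probes kept and 1 to 3027 without each array: 3027 without AS30 control C, 1 without SM30 replicate B or SM30 control B. The main fit did not pair arrays by replicate letter, and whether the letters mark paired cultures is not known. Same-letter deviations correlated at -0.082 to 0.45 and different-letter ones at -0.43 to 0.34. Not every array correlated best with its own letter. With letter as a replicate block 1686 probes rose and 1485 fell, and limma called 0 different between particles, with 4208 at an unadjusted p under 0.05.

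Of 157 named probes, 26 were called under every alternative in which they could be fitted (20 higher, among them MMP1, MMP10, C11orf96, CCL20, CCNG2 and KLF6, and 6 lower, AJUBA, CYP26A1, EDN2, RAB7B, ROR1 and SLC30A1), of which 8 (CAMTA1, CCL20, DUSP10, IRAK2, MMP1, MMP10, RAB7B and STC1) had no value with slide over 18 arrays, and CAMTA1 and MMP10 none with probes positive on all 12 arrays. Of 4035 values, 3483 kept their direction and side of the threshold, 3 changed sign and the rest lost the call. The sign changes were BX460543, a transcript without a symbol, at -0.098 with slide and -0.22 with scan as a block over 12 arrays, and CD365380 at -0.26 with slide over 18 arrays. Without 1 array at a time 26 of the named probes lost their call at least once. Low signal limits genes near background to bounds, and AS30 control C had the fewest spots above it.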
